A study of Homo sapiens with 8 samples.

Results

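The 6 genes described here encode the subunits that human mitochondrial DNA contributes to respiratory complexes III, IV and V: MT-CYB for complex III, MT-CO1, MT-CO2 and MT-CO3 for complex IV, and MT-ATP6 and MT-ATP8 for complex V. They were taken by name from the 20719 genes listed in each library, all 6 were found, and all 6 passed the filter on low counts. Ribosome profiling by RiboLace, which pulls down active ribosomes with a puromycin analogue, had been done on G401 cells, a kidney rhabdoid tumor line that lacks SMARCB1. The cells carried a Tet-On cassette for SMARCB1, a core subunit of the mSWI/SNF chromatin remodelling complex, or for GFP as a control, and were given 0.1 µg/ml doxycycline (Dox) or DMSO for 12 h. This gave 4 groups of 2 libraries: SMARCB1 DMSO, SMARCB1 Dox, GFP DMSO and GFP Dox. All 8 libraries thus share the SMARCB1-deficient G401 background and an inducible transgene, Dox was always given together with induction of a transgene, and whether each line is 1 clone is not given in the sources used here. Per the study's methods, 6 plates were pooled for each condition and the experiments were done in duplicate. Nothing in the sources says that the 2 libraries of a group came from separate cultures on separate days. The p-values therefore measure only the spread between these libraries.

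Complex III passes electrons from ubiquinol to cytochrome c, complex IV passes them from cytochrome c to oxygen, and complex V (ATP synthase) uses the resulting proton gradient to make ATP. The mitochondrially encoded subunits form the membrane-embedded cores of these complexes, are translated by mitochondrial ribosomes at the inner membrane, and are assembled with many subunits that are imported from the cytosol. Doxycycline belongs to the tetracyclines, antibiotics that act on bacterial ribosomes and are known to inhibit the related mitochondrial ribosomes at sufficient dose, so a Tet-On experiment exposes these genes to the inducer itself as well as to the induced protein.

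On the mitochondrial chromosome of GRCh38 (hg38), in the GENCODE 44 annotation, the genes lie on the plus strand as chrM:5904-7445 (MT-CO1, ENSG00000198804), chrM:7586-8269 (MT-CO2, ENSG00000198712), chrM:8366-8572 (MT-ATP8, ENSG00000228253), chrM:8527-9207 (MT-ATP6, ENSG00000198899), chrM:9207-9990 (MT-CO3, ENSG00000198938) and chrM:14747-15887 (MT-CYB, ENSG00000198727). Mitochondrial genes have no introns, and each of these starts with ATG on its first base. MT-CO2 and MT-ATP8 close with the stop codon TAG and MT-ATP6 with TAA. The annotated sequence of MT-CO1 closes with AGA, which is read as a stop in human mitochondria, and those of MT-CO3 and MT-CYB close with a single T, which the poly(A) tail completes to a stop. GC content of the coding sequences ran from 39.7% in MT-ATP8 to 46.6% in MT-CO3.

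The last part of MT-ATP8 is also the first part of MT-ATP6, read in another frame. The 46 bases at chrM:8527-8572 are shown because footprints lying within the 43 coding bases that both genes share, chrM:8527-8569, could be given to neither gene by the counting used. The capitals mark the start codon of MT-ATP6 and the stop codon of MT-ATP8.
MT-ATP8 and MT-ATP6 overlap: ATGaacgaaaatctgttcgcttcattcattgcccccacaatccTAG

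Parts of mitochondrial DNA also exist as copies in the nuclear genome, and a footprint that matches both places equally well was not counted. The longest copy with over 95% identity found by blastn lies at chr1:629081-634924, aligns over 5846 bases with chrM:3911-9755 at 98.5% identity, and so holds MT-CO1, MT-CO2, MT-ATP8, MT-ATP6 and part of MT-CO3. The first 60 bases of 3 genes are shown against their best-matching nuclear copies, because they differ in how well a read of footprint size can be placed. Capitals mark the bases at which the pair differs.
MT-CO1, chrM:5904-5963: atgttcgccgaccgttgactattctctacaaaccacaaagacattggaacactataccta
MT-CO1 copy, chr1:631074-631133: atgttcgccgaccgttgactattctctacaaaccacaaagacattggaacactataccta
MT-ATP6, chrM:8527-8586: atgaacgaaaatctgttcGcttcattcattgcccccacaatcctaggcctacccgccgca
MT-ATP6 copy, chr1:633696-633755: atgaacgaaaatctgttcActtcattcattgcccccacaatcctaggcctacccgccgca
MT-CYB, chrM:14747-14806: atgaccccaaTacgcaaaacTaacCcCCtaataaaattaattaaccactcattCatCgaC
MT-CYB copy, chr5:94569540-94569599: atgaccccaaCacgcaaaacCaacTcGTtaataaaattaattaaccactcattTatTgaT

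The pair for MT-CO1 had 0 differences in these 60 bases, that for MT-ATP6 had 1 and that for MT-CYB had 8. Over its whole coding sequence the best copy of MT-CYB, at chr5:94569540-94570680, matched at 86.0% with 160 mismatches, whereas that of MT-CO1 matched at 98.6% with 20 mismatches. Of all 30-base windows in the coding sequence, 92.3% in MT-CYB occurred once in the genome, against 28.9% in MT-CO1, 35.4% in MT-ATP6, 48.6% in MT-CO2, 53.9% in MT-CO3 and 54.3% in MT-ATP8. The count of a member therefore stands for the part of its sequence that could be placed, and the footprint length and alignment settings are not given in the sources used here. Whether the counting used strand is also not given, and without it reads from the opposite strand of mitochondrial DNA cannot be told apart from reads of these genes.

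The libraries held 5924443 to 14000039 counts on genes. Of the alignment records tallied, 25.6% to 39.7% belonged to reads placed at more than 1 site in 7 libraries and 56.4% in GFP Dox replicate 1 (such a read can be tallied more than once). GFP Dox replicate 1 stood apart from its partner for the genes described here, as did the 2 SMARCB1 DMSO libraries from each other. Differences of the 6 members that rest on them are also given without them, beside the result or as a range in the closing part. For the lists of other genes this was done for the medians of Dox against DMSO in each line, and for single genes where stated. As a check of the labels, SMARCB1 had 0 counts in the 6 libraries in which it was not induced and up to 2553 counts with induction. The line's markers VIM, KRT8 and KRT18 had at least 5109 counts in every library, while of 7 markers of other cell types PTPRC, CD3E, ALB and UMOD were at 0 in all libraries and HBB, APOA1 and NPHS1 did not exceed 4 counts.

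Footprints on the 6 genes were few beside the rest of the library and were dominated by MT-CO1. Together they took 3557 to 12442 counts per library, which was 0.0453% to 0.113% of all counts on genes. MT-CO1 alone made up 66.3% to 75.1% of these, and MT-CO1 and MT-CYB together 87.7% to 91.5%. Among the 13 protein-coding genes of mitochondrial DNA, MT-ND6, a complex I subunit encoded on the opposite strand, held 66.7% to 89.4% of the counts, so shares are given over the other 12 genes. Over those 12 the 6 members held 67.3% and 70.1% in SMARCB1 DMSO, 71.5% and 78.5% in SMARCB1 Dox, 71.5% and 73.0% in GFP DMSO, and 70.7% and 75.7% in GFP Dox (replicates 1 and 2 in that order here and below).

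Levels between genes were compared per length, as the mean over the 8 libraries of the counts per 1000000 (CPM, on library sizes scaled by TMM, which centres the bulk of the genes) per 1000 coding bases. On this scale the mean level was 376 ± 97.3 for MT-CO1, 135 ± 50.2 for MT-CYB, 52.5 ± 17.6 for MT-CO2, 38.1 ± 10.2 for MT-CO3, 28.8 ± 21.8 for MT-ATP8 and 13.9 ± 6.10 for MT-ATP6 (SD, n = 8 libraries of 4 groups). MT-CO1 was above MT-CYB in 8 of 8 libraries and their ranges did not meet, with the lowest MT-CO1 level at 236 and the highest MT-CYB level at 222. The other neighbours in this order overlapped in range. MT-CYB was nonetheless above MT-CO2 in 8 of 8 libraries, and MT-CO2 above MT-CO3, MT-CO3 above MT-ATP8 and MT-ATP8 above MT-ATP6 in 7 of 8 each.

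Counting only the windows that occur once in the genome and lie outside the overlap changed the distances and kept the order. Per 1000 such windows the mean CPM was 1324 for MT-CO1, 150.0 for MT-CYB, 113 for MT-CO2, 73.4 for MT-CO3, 62.4 for MT-ATP8 and 41.2 for MT-ATP6. MT-CO1 then stood 8.83 times above MT-CYB instead of 2.79 times, and MT-CYB 1.33 times above MT-CO2 instead of 2.57 times. MT-ATP8 was above MT-ATP6 in 5 of 8 libraries on this scale, so the place of these partners was not distinguishable from the spread between libraries.

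**Figure D1:**
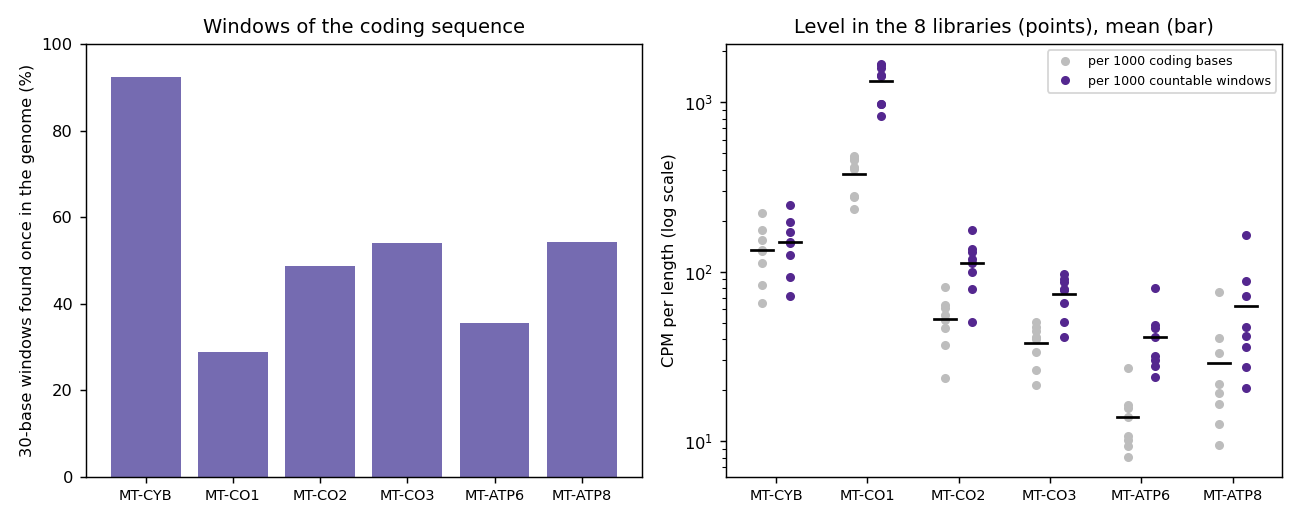
Left, bars give the percent of 30-base windows of each coding sequence that occur once in the genome. Right, points give CPM per 1000 coding bases (grey) or per 1000 countable windows (purple) in each of the 8 libraries on a log axis, and horizontal bars give the mean. MT-CO1 has the smallest share of such windows, 28.9%, and the highest level on both scales, with a mean of 376 or 1324.

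MT-CYB, the cytochrome b subunit that holds the ubiquinol and ubiquinone sites of complex III, had 253 and 74.2 CPM in SMARCB1 DMSO, 201 and 153 in SMARCB1 Dox, 128 and 151 in GFP DMSO, and 95.4 and 175 in GFP Dox. Both the highest and the lowest library belonged to SMARCB1 DMSO, where the replicates differed 3.41-fold. For comparison, replicates of that group differed more than 3-fold in 3.18% of the 10729 genes with a mean of at least 1 CPM, and the median gene differed 1.30-fold.

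MT-CO1, the catalytic subunit of cytochrome c oxidase with the haems and a copper centre where oxygen is reduced, had 739 and 364 CPM in SMARCB1 DMSO, 637 and 699 in SMARCB1 Dox, 427 and 621 in GFP DMSO, and 430 and 723 in GFP Dox. SMARCB1 DMSO again held both extremes, and Dox and DMSO libraries were interleaved in both lines. With 2600 to 8948 counts per library this member was the most deeply counted of the 6.

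MT-CO2, which carries the copper centre that accepts electrons from cytochrome c, had 55.5 and 15.96 CPM in SMARCB1 DMSO, 37.7 and 31.5 in SMARCB1 Dox, 35.4 and 43.2 in GFP DMSO, and 25.1 and 41.4 in GFP Dox. MT-CO3, the structural partner that completes the core of complex IV, had 39.5 and 20.6 CPM in SMARCB1 DMSO, 26.4 and 32.2 in SMARCB1 Dox, 31.6 and 36.9 in GFP DMSO, and 16.7 and 35.2 in GFP Dox. For both genes the Dox libraries of the SMARCB1 line lay between the DMSO libraries of that line.

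MT-ATP6, the subunit that forms the proton channel beside the rotating ring of ATP synthase, had 18.3 and 6.93 CPM in SMARCB1 DMSO, 10.6 and 11.1 in SMARCB1 Dox, 7.24 and 9.37 in GFP DMSO, and 5.46 and 6.36 in GFP Dox. MT-ATP8, a small membrane subunit of the same stator, had 8.34 and 2.57 CPM in SMARCB1 DMSO, 6.77 and 4.44 in SMARCB1 Dox, 3.95 and 1.94 in GFP DMSO, and 15.5 and 3.40 in GFP Dox. MT-ATP6 was lower in both GFP Dox libraries than in both GFP DMSO libraries, while the high mean of MT-ATP8 in GFP Dox came from replicate 1, 4.57 times its partner. These rest on 33 to 135 counts per library for MT-ATP6 and 23 to 94 for MT-ATP8.

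**Figure D2:**
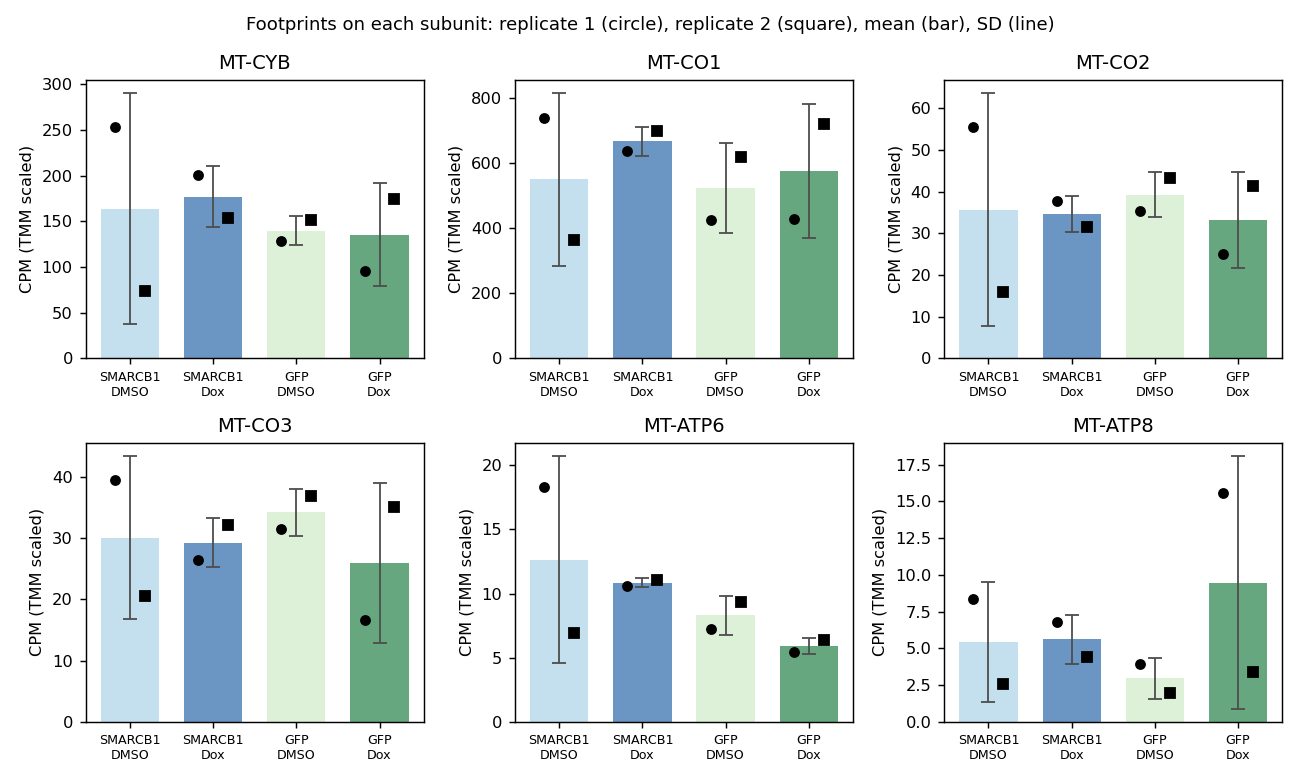
Each panel plots 1 gene, with CPM on TMM-scaled library sizes on the vertical axis and the 4 groups on the horizontal axis. Circles are replicate 1, squares replicate 2, bars the mean and lines the SD of 2 libraries. SMARCB1 DMSO holds the highest library of every gene but MT-ATP8, whose highest value, 15.5 CPM, is GFP Dox replicate 1.

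The first comparison asked whether 12 h of SMARCB1 re-expression moved footprints on these genes. None of the 6 passed the test: 0 were called by edgeR at an adjusted p below 0.05 with a fold above 2, where 0.018% of the 11097 genes tested were called. DESeq2 also called 0 of 6, and 0 of 6 had an unadjusted p below 0.05 in edgeR, as 4.97% of all genes did. In 0 of 6 did the groups not overlap, against 35.6% of all genes. The fitted fold of SMARCB1 Dox over SMARCB1 DMSO was 1.21 for MT-CO1 (95% interval 0.729 to 2.02), 1.08 for MT-CYB (0.573 to 2.05), 1.08 for MT-ATP8 (0.386 to 3.02), 0.985 for MT-CO2 (0.516 to 1.88), 0.981 for MT-CO3 (0.568 to 1.69) and 0.876 for MT-ATP6 (0.459 to 1.67). In edgeR's quasi-likelihood test the adjusted p was 1 for every member. The median log2 difference of the 6 was 0.04, against -0.02 for all genes tested.

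These values turned on both SMARCB1 DMSO libraries, replicate 1 with the highest level of 5 of the 6 genes and replicate 2 with the lowest level of MT-CYB, MT-CO1 and MT-CO2. Without replicate 2 the log2 difference was -0.52 for MT-CYB, -0.15 for MT-CO1, -0.68 for MT-CO2, -0.43 for MT-CO3, -0.76 for MT-ATP6 and -0.55 for MT-ATP8. Without SMARCB1 DMSO replicate 1 instead, the same differences were 1.25, 0.87, 1.12, 0.50, 0.64 and 1.14. No direction can therefore be read for any member in this line, and in no such fit was a member called.

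In the GFP line, where Dox induced GFP in place of SMARCB1, edgeR and DESeq2 each called 0 of 6 members, and edgeR called 0% of all genes. In edgeR 1 of 6 had an unadjusted p below 0.05, as did 2.16% of all genes. Dox and DMSO libraries did not overlap for 1 of 6 members, against 26.3% of all genes. This was MT-ATP6, on the lower side as 13.2% of all genes were. Its fold of GFP Dox over GFP DMSO was 0.712 (95% interval 0.364 to 1.39). The fold was 0.967 for MT-CYB (0.511 to 1.83), 1.10 for MT-CO1 (0.662 to 1.83), 0.847 for MT-CO2 (0.445 to 1.61) and 0.759 for MT-CO3 (0.440 to 1.31). For these 5 genes the adjusted p was 1 by edgeR's quasi-likelihood method.

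MT-ATP8 had the largest fitted difference of the 6 in the GFP line, 3.21-fold (95% interval 1.14 to 9.07), with a log2 difference of 1.68 (SE 0.70). Its unadjusted p was 0.0304 and its adjusted p was 1 in edgeR's quasi-likelihood test, and the libraries of the 2 groups overlapped, with 3.40 CPM in GFP Dox replicate 2 below the 3.95 CPM of GFP DMSO replicate 1. Without GFP Dox replicate 1 the log2 difference was 0.22. The same omission moved MT-CYB from -0.05 to 0.32, MT-CO1 from 0.14 to 0.46, MT-CO2 from -0.24 to 0.07 and MT-CO3 from -0.40 to 0.04, and MT-ATP6 from -0.49 to -0.39. The median log2 difference of the 6 was -0.14, against 0.02 for all genes tested.

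Averaged over both lines, which asks for an effect of Dox shared by SMARCB1 and GFP induction, edgeR and DESeq2 called 0 of 6 members, with 0% of all genes called by edgeR. An unadjusted p below 0.05 was seen in 0 of 6, against 3.46% of all genes. The fold was 1.02 for MT-CYB (95% interval 0.652 to 1.61), 1.15 for MT-CO1 (0.806 to 1.65), 0.913 for MT-CO2 (0.579 to 1.44), 0.863 for MT-CO3 (0.586 to 1.27), 0.789 for MT-ATP6 (0.495 to 1.26) and 1.86 for MT-ATP8 (0.898 to 3.86). The intervals of the first 5 genes lie between 0.495 and 1.65, and that of MT-ATP8 is wider. Without GFP Dox replicate 1 the averaged log2 difference of MT-ATP8 was 0.17 instead of 0.90, and that of MT-CYB was 0.22, MT-CO1 0.37, MT-CO2 0.03, MT-CO3 0.0061 and MT-ATP6 -0.28. Without SMARCB1 DMSO replicate 1 the averaged difference was 0.60 for MT-CYB, 0.50 for MT-CO1, 0.44 for MT-CO2, 0.049 for MT-CO3, 0.075 for MT-ATP6 and 1.41 for MT-ATP8, and without replicate 2 it was -0.28, -0.0049, -0.46, -0.42, -0.62 and 0.56. The direction of the first 5 genes thus changed with the libraries left out.

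An interaction term asked whether Dox acted unequally on the 2 lines. By edgeR and by DESeq2 0 of 6 members were called, 0% of all genes were called by edgeR, and 0 of 6 had an unadjusted p below 0.05, against 3.99% of all genes. MT-ATP8 had the largest, a log2 difference of -1.57 as SMARCB1 line minus GFP line (SE 0.98, adjusted p = 0.981 in edgeR's quasi-likelihood test), and without GFP Dox replicate 1 this was -0.09. For the other 5 members the difference lay between 0.14 and 0.37, with adjusted p from 0.981 to 0.993 by the same test. For these 5 it lay between 0.74 and 1.36 without SMARCB1 DMSO replicate 1 and between -0.47 and -0.035 without replicate 2, so its direction was set by which of these libraries was kept. Without GFP Dox replicate 1 it was 0.21 for MT-ATP6 and -0.20 to -0.061 for MT-CYB, MT-CO1, MT-CO2 and MT-CO3.

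**Figure D3:**
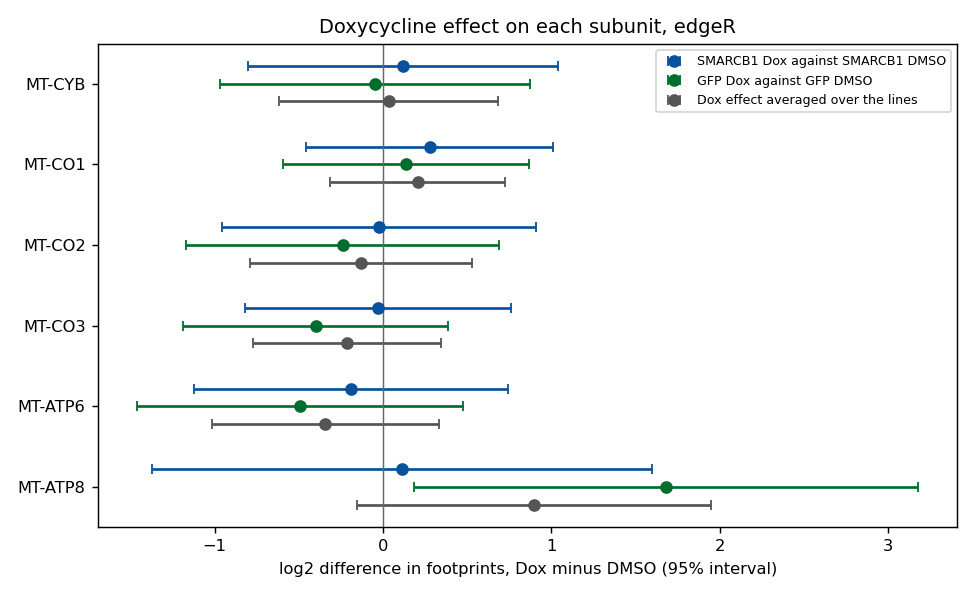
The horizontal axis is the fitted log2 difference, Dox minus DMSO, with its 95% interval, for the SMARCB1 line (blue), the GFP line (green) and the average of both (grey). The interval of MT-ATP8 in the GFP line, 0.18 to 3.18 with no adjustment for the number of genes tested, leaves out 0 and each of the others crosses it.

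The lines were also compared with each other. Under DMSO, edgeR and DESeq2 called 0 of 6 members between the SMARCB1 line and the GFP line, where edgeR called 4.97% of all genes. In 0 of 6 was the unadjusted p below 0.05, against 13.9% of all genes, and in 0 of 6 did the groups not overlap, against 44.8%. Log2 differences of the SMARCB1 line minus the GFP line ran from -0.20 for MT-CO3 to 0.84 for MT-ATP8, with adjusted p from 0.675 to 0.965 in edgeR's quasi-likelihood test. Without SMARCB1 DMSO replicate 1 all 6 lay below 0, at -0.91 for MT-CYB, -0.53 for MT-CO1, -1.30 for MT-CO2, -0.73 for MT-CO3, -0.26 for MT-ATP6 and -0.19 for MT-ATP8. Without replicate 2 all 6 lay above 0, at 0.86, 0.49, 0.50, 0.20, 1.14 and 1.50. With Dox, both tools called 0 of 6 members, against 6.08% of all genes in edgeR, and 0 of 6 had an unadjusted p below 0.05, against 18.7%. The groups did not overlap in 1 of 6, against 46.1% of all genes. This was MT-ATP6, on the higher side as 23.2% of all genes were, with 10.6 and 11.1 CPM in SMARCB1 Dox against 5.46 and 6.36 in GFP Dox. Its log2 difference was 0.87 (SE 0.46, adjusted p = 0.326 in edgeR's quasi-likelihood test). MT-ATP8 lay the other way at -0.73, and at 0.74 without GFP Dox replicate 1. The same omission gave 0.77 for MT-ATP6, 0.018 for MT-CYB, -0.11 for MT-CO1, -0.25 for MT-CO2 and -0.27 for MT-CO3.

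MT-ATP8 and MT-ATP6 are translated from the same mRNA, so their counts were also set against each other within each library, where depth cancels. MT-ATP8 took 31.3% of the counts of the pair in SMARCB1 DMSO replicate 1 and 27.0% in replicate 2, 38.9% and 28.6% in SMARCB1 Dox, 35.3% and 17.2% in GFP DMSO, and 74.0% and 34.8% in GFP Dox. The 95% Wilson interval of GFP Dox replicate 1, 65.8% to 80.9%, did not meet that of any other library, the highest of which reached 46.9% (intervals cover counting error only). That library had 94 counts on MT-ATP8 and 33 on MT-ATP6, and the other 7 had a share of 17.2% to 38.9%. MT-ATP8 held 29.1% of the countable windows of the pair. GFP Dox replicate 1 was also the library with 56.4% of records not unique, and the part of that in this share was not tested.

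**Figure D4:**
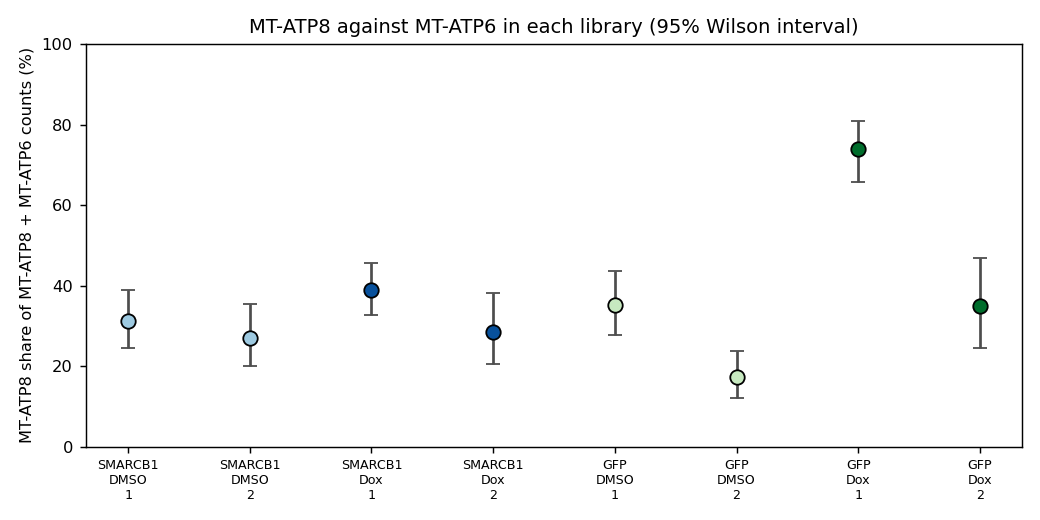
The vertical axis is the percent of MT-ATP8 in the summed counts of MT-ATP8 and MT-ATP6, with its 95% Wilson interval, for each library. GFP Dox replicate 1 lies at 74.0% and the other 7 libraries between 17.2% and 38.9%.

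Apart from MT-ATP8 the members varied together from library to library. Pearson's r of log2 CPM over the 8 libraries was 0.61 to 0.93 for the 10 pairs without MT-ATP8, and -0.43 to 0.14 for the 5 pairs with it. Without GFP Dox replicate 1 the pairs with MT-ATP8 had r of 0.19 to 0.69 over 7 libraries, here on log2 CPM without a prior count. All these points share their library, its depth and its scaling. In SMARCB1 DMSO replicate 1 lay above replicate 2 for every member, by 1.91-fold for MT-CO3 to 3.48-fold for MT-CO2. The r without these libraries was not computed. Genes outside mitochondrial DNA whose log2 CPM was most like the mean of the members, among 11084 genes and over the 8 libraries, included UBXN2A (r = 0.99), XPO6 (0.95), FGFR4 (0.95) and ZDHHC20 (0.95). UBXN2A had 17.5 and 6.39 CPM in SMARCB1 DMSO and 8.76 to 12.9 CPM in the other 6 libraries, so it too had its extremes within that group.

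The 7 complex I subunits of mitochondrial DNA were read from the same fit, and 0 of 7 were called in any of the 6 comparisons. In the SMARCB1 line 6 of 7 lay below 0 with Dox, with a median log2 difference of -0.39, and MT-ND6 had the smallest p, at -0.58 (SE 0.36). Without SMARCB1 DMSO replicate 1, 6 of 7 lay above 0 with a median of 0.66, and without replicate 2, 7 of 7 lay below 0 with a median of -0.81, so no direction can be read for these genes either. In the GFP line 3 of 7 lay below 0, with a median of 0.05, and MT-ND3 had the smallest p, at 0.27 (SE 0.51). Without GFP Dox replicate 1, 2 of 7 lay below 0 there, with a median of 0.14. MT-ND6 also led the difference between the lines, at -0.69 (SE 0.51), and MT-ND1 the averaged effect, at -0.27 (SE 0.28).

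Nuclear genes for the partner subunits of complexes III, IV and V also gave 0 calls in either Dox comparison, out of 8, 11 and 18 tested. For complex III the median log2 difference with SMARCB1 induction was -0.04 and with GFP induction -0.21, and the smallest p belonged to UQCRQ, a small subunit, at 0.36 (SE 0.26) and to UQCRC1, a core subunit, at 0.46 (SE 0.27). For complex IV the medians were -0.10 and -0.25, led by COX6A1 at 0.69 (SE 0.48) and COX7B at -0.60 (SE 0.30). For complex V the medians were -0.12 and -0.06, led by ATP5PD at -0.51 (SE 0.30) and ATP5PB at -0.51 (SE 0.27), both of the peripheral stalk. The medians of the SMARCB1 line turned on its DMSO libraries. Without SMARCB1 DMSO replicate 1 they were -0.14 for complex III, -0.30 for complex IV and -0.31 for complex V. Without replicate 2 they were 0.17, 0.35 and 0.23. No complex IV subunit, COX6A1 included, exceeded 0.32 without replicate 1. No direction can therefore be read for these lists in that line. The medians of the GFP line without GFP Dox replicate 1 were -0.0068 for complex III, -0.19 for complex IV and -0.14 for complex V. In the difference between the lines UQCRQ, COX5B and ATP5ME had the smallest p of their lists, at 0.74, -0.56 and -0.82, and in the averaged effect UQCRB, COX6C and ATP5PB, at -0.22, -0.30 and -0.37. Comparing the lines with Dox, all 11 complex IV subunits lay above 0, with 0 calls and a median of 0.51, against -0.01 for all genes tested. Without SMARCB1 Dox replicate 2, 9 of 11 did, with a median of 0.32. Under DMSO 8 of 11 lay above 0, with a median of 0.15, against 0.02 for all genes tested. This was 11 of 11 with a median of 0.38 without SMARCB1 DMSO replicate 1, and 5 of 11 with a median of -0.08 without replicate 2. No partner subunit was called between the lines with all 8 libraries. With Dox, UQCR10 was at 2.13, UQCRQ at 1.07 and COX7C at 1.36 without GFP Dox replicate 2. Without GFP Dox replicate 1 no complex III subunit exceeded 0.45 there and no complex IV subunit 0.93. Under DMSO, COX5B was at 1.31, COX6B1 at 1.21 and ATP5ME at 1.39 without SMARCB1 DMSO replicate 1. Without SMARCB1 DMSO replicate 2 no complex IV subunit exceeded 0.28 there and no complex V subunit 0.35.

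Assembly factors gave 0 calls with Dox, out of 7 tested for complex III, 23 for complex IV and 5 for complex V. The median for complex III factors was -0.36 in the SMARCB1 line, with UQCC4 at -0.88 (SE 0.44), and 0.02 in the GFP line, with TTC19 at -0.41 (SE 0.25). Complex IV factors lay above 0 in 11 of 23 and in 12 of 23, led by COA6, a copper delivery factor for MT-CO2, at -0.79 (SE 0.35, adjusted p = 0.980 in edgeR's quasi-likelihood test) and by COX19 at -0.92 (SE 0.36). Complex V factors had medians of 0.09 and 0.25, led by ATPAF1 at 0.39 (SE 0.22) and TMEM242 at 0.76 (SE 0.40). Without SMARCB1 DMSO replicate 1 the medians of the SMARCB1 line were -0.44, -0.16 and 0.34 for factors of complexes III, IV and V. Without replicate 2 they were -0.15, 0.19 and 0.06. Those of the GFP line were -0.25, -0.06 and 0.08 without GFP Dox replicate 1. UQCC4, COX19 and FMC1 led the difference between the lines, at -1.16, 1.17 and -0.66, and BCS1L, CMC1 and ATPAF1 the averaged effect, at -0.42, -1.03 and 0.32. Without GFP Dox replicate 2 the log2 difference of CMC1 between the lines with Dox was 7.94, so its values depended on which GFP Dox library was kept. The lowest averaged difference among the complex IV factors was -3.85 without GFP Dox replicate 2 and -0.85 without replicate 1.

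COA7, an assembly factor of complex IV, was the only gene of these lists called in any comparison of the fit to all 8 libraries, and it was called between the lines, where edgeR called 4.97% of all genes under DMSO and 6.08% with Dox. As 1 of the 23 complex IV factors tested it is a share near that background. It had 21.7 and 37.5 CPM in SMARCB1 DMSO and 27.3 and 31.7 in SMARCB1 Dox, against 59.2 and 63.0 in GFP DMSO and 61.3 and 57.1 in GFP Dox. All 4 libraries of the SMARCB1 line were below all 4 of the GFP line. Between the lines the groups did not overlap for 44.8% of all genes under DMSO and for 46.1% with Dox, in either direction. The share of all genes parted in all 8 libraries was not computed. The log2 difference was -1.03 (SE 0.28, adjusted p = 0.0442) under DMSO and -1.01 (SE 0.28, adjusted p = 0.0449) with Dox, both by edgeR's quasi-likelihood test and both near the threshold. Over 18 other settings of the fit it kept its sign and was called in 12 under DMSO and in 8 with Dox. Without SMARCB1 DMSO replicate 1, SMARCB1 Dox replicate 1 or 2, or GFP DMSO replicate 1 or 2, the call under DMSO was lost, with log2 differences from -1.08 to -0.70. Without GFP Dox replicate 1, SMARCB1 Dox replicate 1 or 2, or GFP DMSO replicate 1 or 2, that with Dox was lost, with log2 differences from -1.11 to -0.90.

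Genes that process and stabilise mitochondrial RNA (15 tested) and factors of mitochondrial translation (13 tested) gave 0 calls with Dox. In the GFP line SLIRP was at -1.21 and the complex V factor TMEM242 at 1.34 without GFP Dox replicate 2. That fit keeps replicate 1 as the only GFP Dox library. With all 8 libraries these genes were at -0.69 and 0.76. Without GFP Dox replicate 1 instead, no gene that processes or stabilises mitochondrial RNA lay below -0.53. No complex V factor then exceeded 0.27, so both values depended on which GFP Dox library was kept. The medians of the first list were 0.05 for the SMARCB1 line and -0.15 for the GFP line, led by SUPV3L1, a helicase of the mitochondrial RNA degradation complex, at 0.52 (SE 0.24) and SLIRP, the partner of LRPPRC in mRNA stability, at -0.69 (SE 0.27). Those of the second were -0.04 and 0.01, led by TSFM, an elongation factor, at -0.36 (SE 0.26) and GUF1 at -0.51 (SE 0.28). Without SMARCB1 DMSO replicate 1 the medians of the SMARCB1 line were 0.07 for the first list and 0.30 for the second. Without replicate 2 they were -0.04 and -0.16. Those of the GFP line were -0.02 and 0.02 without GFP Dox replicate 1. ELAC2, which trims mitochondrial tRNA, and GUF1 led the difference between the lines at -0.71 and 0.62, and SLIRP and MTRF1L, a release factor, led the averaged effect at -0.39 and 0.54.

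Counts on these genes come from whole libraries, in which fewer cells of a type and less RNA per cell cannot be told apart. In footprint counts alone, more mRNA also cannot be told apart from more ribosomes per mRNA. The study paired its ribosome profiling with total RNA-seq to assess translation efficiency, and those RNA data were not used here. The files hold no read positions or lengths, so fragments protected by mitochondrial ribosomes could not be separated from other fragments of mitochondrial RNA.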

How the data were processed

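Per the study's methods, the authors aligned RiboLace reads to hg38 with STAR and counted them per gene with HTSeq on coding sequence (intersection-strict mode, GENCODE 42). The deposited values are raw counts per gene. 5 summary rows name no gene and were left out. Records of reads with several alignments were 25.6% to 56.4% of all aligned, and 36.6% to 45.9% of unique reads were assigned to no annotated coding sequence. Gene IDs were matched to symbols in GENCODE 44, and 311 of 20719 had none.

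Counts were tested with edgeR 4.0.16 (R 4.3.3; filterByExpr, TMM, quasi-likelihood, 1 term per group, all 8 libraries), with Benjamini-Hochberg adjustment over 11097 genes. A gene was called at adjusted p below 0.05 and fold above 2. The code was tested on simulated data. CPM used TMM-scaled library sizes, and log2 CPM a prior count of 2, except in the correlations without GFP Dox replicate 1, which used none. Windows of 30 bases were searched for exact matches on both strands of the primary chromosomes within blastn 2.17.0 hits of the mitochondrial genome. Replicates differed beyond sampling noise (chi-square per degree of freedom 15.1 to 47.8). Alternatives were DESeq2 1.42.0, other scalings and filters, a replicate block and leaving out libraries.

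Named were the 6 members, SMARCB1, list genes called or with the smallest p in each Dox comparison, and the 5 genes most alike in level, of which 1 is not reported here. Members and lists were chosen with earlier results of these data known.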

Additional observations from a re-analysis of the deposited data

How the results depend on the processing

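In all 6 comparisons 0 members were called under every alternative run: size factors of DESeq2, library size alone, sizes from nuclear genes, DESeq2, no filter, at least 10 counts in every library, the compared groups alone (for the 4 comparisons of 2 groups), a robust fit, the replicate block and each library left out. Apart from the omissions, 309 of 312 log2 differences kept their sign. With library size as the only scaling those in the SMARCB1 line became 0.053 for MT-CO2 and 0.062 for MT-CO3, while the median of all genes moved from -0.02 to 0.09 there, from -0.03 to 0.16 in the interaction and from -0.01 to 0.11 between the lines with Dox. With the replicate number as a block, that of MT-CO2 became 0.033, and the block changed no call. Same-numbered libraries deviated together with r of 0.05 to 0.28, above 0.1 in 5 of 6 pairs of groups, and the labels name no shared batch. With 1 library left out, or with SMARCB1 DMSO replicate 2 and GFP Dox replicate 1 left out together (added after seeing the data), 69 of 324 values changed sign, over 31 of 36 results. A group left with 1 library is assumed to vary like the others. The log2 difference in SMARCB1 Dox against SMARCB1 DMSO ran for MT-CYB from -0.52 to 1.25, MT-CO1 from -0.15 to 0.87, MT-CO2 from -0.68 to 1.12, MT-CO3 from -0.43 to 0.50, MT-ATP6 from -0.76 to 0.64 and MT-ATP8 from -0.55 to 1.14. The log2 difference in GFP Dox against GFP DMSO ran for MT-CYB from -0.55 to 0.32, MT-CO1 from -0.29 to 0.46, MT-CO2 from -0.65 to 0.072, MT-CO3 from -1.04 to 0.037, MT-ATP6 from -0.67 to -0.29 and MT-ATP8 from 0.20 to 2.40. The difference of the Dox effects between the lines ran for MT-CYB from -0.82 to 1.30, MT-CO1 from -0.59 to 0.74, MT-CO2 from -0.73 to 1.36, MT-CO3 from -0.46 to 1.02, MT-ATP6 from -0.35 to 1.14 and MT-ATP8 from -2.26 to -0.09. The log2 difference for the averaged Dox effect ran for MT-CYB from -0.28 to 0.60, MT-CO1 from -0.0058 to 0.50, MT-CO2 from -0.46 to 0.44, MT-CO3 from -0.53 to 0.049, MT-ATP6 from -0.62 to 0.075 and MT-ATP8 from -0.17 to 1.41. The log2 difference between the lines under DMSO ran for MT-CYB from -0.91 to 0.86, MT-CO1 from -0.53 to 0.49, MT-CO2 from -1.30 to 0.50, MT-CO3 from -0.73 to 0.20, MT-ATP6 from -0.26 to 1.14 and MT-ATP8 from -0.19 to 1.51. The log2 difference between the lines with Dox ran for MT-CYB from 0.02 to 0.89, MT-CO1 from -0.11 to 0.64, MT-CO2 from -0.25 to 0.47, MT-CO3 from -0.27 to 0.81, MT-ATP6 from 0.77 to 0.99 and MT-ATP8 from -1.44 to 0.76. Without both of those libraries the adjusted p of MT-CYB between the lines under DMSO was 0.0208 at a fold below 2, and under the other settings of that result it lay between 0.25 and 0.999. Level per length kept its order over windows of 25, 30 or 35 bases.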
